A study of Homo sapiens with 4 samples.

Results

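SNRPA1 and other components of the U2 small nuclear ribonucleoprotein (U2 snRNP) were examined through their skipped exons in MDA-MB-231, an established human triple-negative breast cancer cell line, and in MDA-LM2, its highly lung-metastatic derivative. The genes were SNRPA1, SNRPB2, SF3A1, SF3A3, SF3B1, SF3B2, SF3B3, U2AF1, U2AF2 and U2SURP. An exon belonged to the set when it was the middle exon of a skipped-exon event and lay, on the same strand, inside one of these 10 genes of GENCODE release 29. This gave 17 exons of 37641 in the files, in 7 of the 10 genes. SNRPB2, SF3A1 and SF3A3 had no listed event and are not described further. Of the 17 exons, 16 were listed in both lines, and 12 of those had at least 10 reads telling inclusion from skipping in each library and at least 1 read of each kind over both. No treatment was applied to either line, and MDA-LM2 is a selected population of MDA-MB-231, so the lines share their origin. Each line was sequenced from 2 samples. The deposited values are 1 set per line, taken here as pooled, so no difference between the lines has a replicate check.

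The U2 snRNP recognises the branch point of an intron in the early spliceosome. SNRPA1 (protein A′) and SNRPB2 (protein B″) sit on the U2 RNA itself, while the SF3a and SF3b complexes clamp the snRNP to the branch point. U2AF1 and U2AF2 form the U2 auxiliary factor, which reads the AG at the intron's end and the pyrimidine tract before it and so guides U2 there, and U2SURP is a U2-associated protein with an SR-related domain. Many splicing factor genes carry exons that bring in a stop codon and send the transcript to nonsense-mediated decay, so their own splicing can set how much protein is made.

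The reads that fit inclusion, skipping or both isoforms of an event are called event reads here. Over all events they summed to 17366605 in LM2 and 21716937 in parental cells. Reads that fit neither isoform made up 74.7% and 75.7% of all reads at events. Of the markers of a mesenchymal-type breast cancer line, 4 of 6 had listed events, among them CD44 with up to 38259 event reads in LM2 and 54542 in parental cells. VIM and CAV1 had none listed. Of the luminal and epithelial markers 5 of 8 were listed, with ESR1 and PGR at no more than 2 reads in either line and KRT8 at 6187 and 5877. Of 10 markers of other cell types 3 were listed, with at most 5 reads in a line.

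No exon of the set differed between the lines by the rule used for all exons. That rule takes 2 values from the authors' deposited table. The inclusion difference had to reach 0.2 in size. The Bayes factor, which is how many times likelier the data are with a difference than with none, had to reach 10. The rule called 0 of the 12 member exons in either direction. Of all 14109 exons past the same read minimum, it called 0.921% as higher in LM2 and 0.326% as lower. When the inclusion difference had to reach only 0.1, the count was again 0 of 12, against 2.07% of all. With shares this low a count of 0 in 12 exons is near the background. By the authors' deposited table, the difference was under 0.1 in size at 11 of the 12 exons, and the Bayes factor was under 1 at 11 of the 12. The median difference, LM2 minus parental, was 0.005 over the member exons and 0 over all exons. The deposited intervals of the 2 lines met or overlapped at each of the 16 exons listed in both. No share over all exons is given for this overlap or for the counts of 11 of 12. They therefore do not set the member exons apart from other exons.

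**Figure D1:**
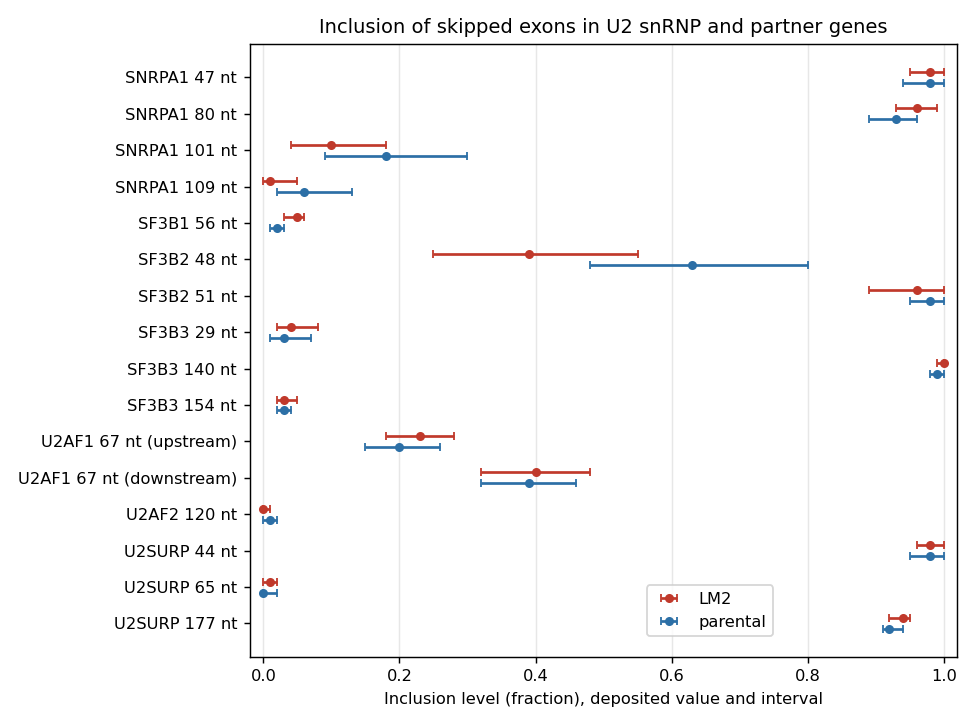
Deposited inclusion level (x axis, fraction from 0 to 1) of each of the 16 exons listed in both lines, with points for the level, bars for the deposited interval and colours for the line. Most exons lie near 0 or near 1 in both lines, and the 48-nt form of the SF3B2 exon has the widest gap, at 0.39 in LM2 against 0.63.

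Most member exons had a deposited level near 1 or near 0. Of the 16 exons, 6 had a level of at least 0.9 in both lines, 6 had a level of at most 0.1 in both, and 4 lay between in at least 1 line. Among the 12 exons past the read minimum 4 were in the high class and 5 in the low class. Over all exons past the minimum, 23.3% were in the high class and 29.4% in the low class. Of the 16 lengths, 4 were divisible by 3, so that adding or skipping the other exons shifts the reading frame where they are coding.

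SNRPA1 (ENSG00000131876.16, chromosome 15, 101281510 to 101295282, minus strand, hg38) had 4 of the 17 exons. The best covered is a coding exon of 80 nt, exon 6 of 9 in the principal transcript, at chr15:101286214-101286293. It is shown because its loss puts a stop codon right at the new junction. The exon is in capitals between 15 bases of each neighbouring exon, and in the joined form below it the capitals mark the first in-frame stop codon (sequences of GENCODE release 29 transcripts, GRCh38, 5′ to 3′ on the transcript):
SNRPA1 80-nt exon: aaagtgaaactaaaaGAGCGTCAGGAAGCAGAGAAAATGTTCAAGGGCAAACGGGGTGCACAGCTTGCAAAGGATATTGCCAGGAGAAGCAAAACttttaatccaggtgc
SNRPA1 junction without the 80-nt exon: aaagtgaaactaaaatttTAAtccaggtgc

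In the principal transcript the SNRPA1 reading frame runs for 255 codons. Without the 80-nt exon it ends after 154 codons, 3 nt past the new junction and 167 nt before the last exon junction. The exon was included at 0.96 (deposited interval 0.93 to 0.99) in LM2 and 0.93 (0.89 to 0.96) in the parental line. Skipping reads were few in both lines, with 5 exclusion reads beside 348 inclusion reads in LM2 and 12 beside 345 in parental cells. Skipped transcripts lost to decay before sequencing would not be counted. The odds of inclusion in LM2 over those in parental cells were 2.42 with an exact conditional 95% interval of 0.783 to 8.86, so the fewer skipping reads in LM2 were within counting error.

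An upstream coding exon of SNRPA1, of 47 nt and exon 4 of 9 (chr15:101287656-101287702), was included at 0.98 in each line. Its event joins it to the first exon of the gene, and no read supported that long skip, with 0 exclusion reads beside 162 and 131 inclusion reads. The exact 95% interval of the inclusion share of these reads began at 97.7% in LM2 and 97.2% in parental cells. Reads that skip the 47-nt exon alone fit neither isoform of this event, so that skip was not measured. It would end the frame of the principal transcript after 111 codons.

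The other SNRPA1 exons lie outside the principal transcript. A 109-nt exon is annotated only in a non-coding transcript of the gene. In LM2 no read included it and 31 skipped it, and in parental cells 3 included and 23 skipped it. The level was 0.01 (0 to 0.05) against 0.06 (0.02 to 0.13), with an odds ratio interval reaching from 0 to 1.97. With 0 of 31 reads, the exact interval of the inclusion share in LM2 reached 11.2%, and the parental share of 11.5% (2.45 to 30.2) was thus not clearly apart from it.

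A 101-nt exon near the start of SNRPA1 (chr15:101293293-101293393), untranslated in its 1 annotated transcript, shows how a deposited level can fall without skipping reads. Its level was 0.10 (0.04 to 0.18) in LM2 and 0.18 (0.09 to 0.30) in the parental line, yet 0 exclusion reads were counted in either line. Inclusion reads were 7 and 11, beside 153 and 123 reads on the neighbouring exons that fit both isoforms. The exon did not reach the read minimum in LM2.

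The SF3b complex holds SF3B1, which grips the branch point helix, with SF3B2 and SF3B3 as further subunits. SF3B1 (chromosome 2, 197389784 to 197435091, minus strand) had 1 exon, of 56 nt, at chr2:197418896-197418951. It is part of 1 short protein-coding transcript whose frame stops inside it. The SF3B3 exon of 29 nt (chr16:70550650-70550678) and the U2SURP exon of 65 nt (chr3:143024484-143024548) also carry the end of an annotated frame, in transcripts marked for nonsense-mediated decay. These 3 are shown from 15 bases before the exon to the annotated stop codon, which is in capitals, because they share this feature and are skipped in most informative reads:
SF3B1 56-nt exon, to the stop: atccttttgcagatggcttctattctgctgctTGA
SF3B3 29-nt exon, to the stop: gtcgacacattgaaggtggctggTGA
U2SURP 65-nt exon, to the stop: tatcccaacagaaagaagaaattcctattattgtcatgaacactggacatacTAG

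The stop codon begins at base 18 of the SF3B1 exon, base 9 of the SF3B3 exon and base 38 of the U2SURP exon. In LM2 the SF3B1 exon had 32 reads for inclusion and 275 for skipping, and in parental cells 14 and 250. Inclusion thus took 10.4% (exact 95% interval 7.24 to 14.4) of informative reads in LM2 and 5.30% (2.93 to 8.74) in the parental line. The odds ratio was 2.08 (1.05 to 4.31), and this SF3B1 exon was the 1 of the 12 member exons whose interval lay above 1. No member interval lay below 1. Over all exons 3.17% had an interval above 1 and 3.04% below 1, from counting error alone without a replicate, so 1 in 12 is not far from the background. The deposited levels were 0.05 (0.03 to 0.06) and 0.02 (0.01 to 0.03), and the authors' deposited table gave a Bayes factor of 0.39.

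The SF3B3 exon of 29 nt was skipped in nearly all reads of both lines, included by 4 reads against 86 in LM2 and by 2 against 67 in parental cells. Its level was 0.04 (0.02 to 0.08) against 0.03 (0.01 to 0.07). A 5′ untranslated SF3B3 exon of 154 nt (chr16:70524864-70525017) stood at 0.03 in each line by the deposited level. By reads it was included 30 and skipped 154 times in LM2, and 23 and 151 times in parental cells, an odds ratio of 1.28 (0.683 to 2.42). The exon after it, of 140 nt and exon 2 of 26 in the principal transcript (chr16:70526587-70526726), holds the start of the coding part of SF3B3. It was included at 1.0 and 0.99, with 0 exclusion reads beside 949 inclusion reads in LM2 and 841 in parental cells.

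SF3B2 (chromosome 11, 66050729 to 66069308) had 1 exon in 2 forms, exon 5 of 22, that differ by 3 bases at the start. Both forms are coding and keep the frame. The sequence is printed because the 3 extra bases, in capitals, are all that separates the 51-nt form from the 48-nt form, and 15 bases of each neighbouring exon are given around it:
SF3B2 51-nt exon: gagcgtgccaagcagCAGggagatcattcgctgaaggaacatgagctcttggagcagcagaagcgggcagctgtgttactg

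The 51-nt form of the SF3B2 exon (chr11:66055535-66055585) was at 0.96 (0.89 to 1.0) in LM2 and 0.98 (0.95 to 1.0) in the parental line. The 48-nt form (chr11:66055538-66055585) was at 0.39 (0.25 to 0.55) against 0.63 (0.48 to 0.80), the only member difference of 0.1 or more among those past the read minimum. For its difference of -0.24 the authors' deposited table gave a Bayes factor of 3.58, short of 10. Skipping did not separate the lines, since both forms had 1 read for skipping in LM2 and none in parental cells. Inclusion reads of the 48-nt form were 28 and 60, beside 426 and 572 reads that fit both isoforms. The 51-nt event held 94 more inclusion reads than the 48-nt event in LM2 and 116 more in parental cells, and the 48-nt event held just as many more reads that fit neither isoform. From inclusion and exclusion reads alone the 48-nt form had a level of 0.933 in LM2 and 1 in parental cells, a difference of -0.067. Reads within the shared 48 bases fit inclusion of either form. Neither the deposited nor the read-based level of the 48-nt form therefore measures how often that form was used in place of the 51-nt form.

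U2AF1 (chromosome 21, 43092956 to 43107587, minus strand), the subunit that reads the AG of the 3′ splice site, has a pair of 67-nt exons. Each keeps the frame when the other is left out, and a transcript with both is annotated for nonsense-mediated decay, with its stop codon at base 27 of the downstream exon. They are printed to show how alike they are, with 44 identical bases (65.7%), and capitals mark the 23 bases that differ at the same position:
U2AF1 upstream exon: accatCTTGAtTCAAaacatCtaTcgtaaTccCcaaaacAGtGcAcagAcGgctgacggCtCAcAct
U2AF1 downstream exon: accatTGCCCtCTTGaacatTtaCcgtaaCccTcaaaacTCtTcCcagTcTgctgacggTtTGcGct

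The upstream U2AF1 exon (chr21:43101366-43101432) was at 0.23 (0.18 to 0.28) in LM2 and 0.20 (0.15 to 0.26) in the parental line. The downstream exon (chr21:43100453-43100519), that of the principal transcript, was at 0.40 (0.32 to 0.48) and 0.39 (0.32 to 0.46). In each event the other exon of the pair is a neighbouring exon, so the inclusion isoform holds both. The form with the included exon alone is in neither isoform of its event. These deposited levels are therefore not the share of transcripts that use either exon. The exclusion reads of each event join 1 of the pair directly to its outer neighbour and so tell the single-exon forms apart. Reads that skip the upstream exon numbered 115 in LM2 and 104 in parental cells, and reads that skip the downstream exon 55 and 70. The form with the downstream exon alone thus took 67.6% (exact 95% interval 60.1 to 74.6) of these reads in LM2 and 59.8% (52.1 to 67.1) in the parental line. The odds ratio was 1.41 with an interval of 0.884 to 2.24, which holds 1.

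The reads of U2AF1 cannot be assigned to that gene alone. GRCh38 carries a near-identical copy, U2AF1L5, on the same chromosome, and its 2 matching events, at chr21:6493044-6493110 and chr21:6492131-6492197, were listed with the same read counts. Inclusion, exclusion and shared reads were equal at both copies, except for 64 inclusion reads at the upstream exon of U2AF1L5 in LM2 against 63 at U2AF1. The deposited levels of the copies differed by no more than 0.01. Reads that fit neither isoform did differ, for example 2577 at the downstream exon of U2AF1 and 2794 at that of U2AF1L5 in LM2.

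U2AF2 (chromosome 19, 55654146 to 55674715), the subunit that binds the pyrimidine tract, had 1 exon of 120 nt (chr19:55658862-55658981), known from a transcript marked for nonsense-mediated decay. Like the SF3B1, SF3B3 and U2SURP exons, it carries the end of an annotated frame, with the stop codon at base 108. It was hardly seen in the reads, included by 0 reads against 167 in LM2 and by 1 against 188 in parental cells. Reads count the RNA present, so inclusion before any decay was not measured, here or at the other exons with such a stop. The exact interval of the inclusion share reached 2.18% in LM2 and 2.91% in parental cells, so a small use of the exon was not detectable at this depth.

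U2SURP (chromosome 3, 142964497 to 143060546) had 4 exons by the rule. Its 44-nt coding exon, exon 13 of 28 (chr3:143023975-143024018), was at 0.98 in each line, skipped by 1 read in LM2 and 2 in the parental line. The 65-nt exon with the stop codon had 0 inclusion reads in either line, beside 66 and 80 exclusion reads. The 177-nt coding exon, exon 27 of 28 (chr3:143054943-143055119), had the most informative reads of the set. It was at 0.94 (0.92 to 0.95) in LM2 and 0.92 (0.91 to 0.94) in the parental line, from 1271 inclusion and 77 exclusion reads against 1218 and 90. The odds ratio of 1.22 had an interval of 0.88 to 1.69, so with 1348 and 1308 informative reads the U2SURP difference was still within counting error. A 123-nt exon (chr3:142990015-142990137) was listed in parental cells alone, with 3 inclusion reads. It lies inside U2SURP but is an annotated exon of the overlapping gene PAQR9-AS1 and not of U2SURP, so its gene is uncertain.

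**Figure D2:**
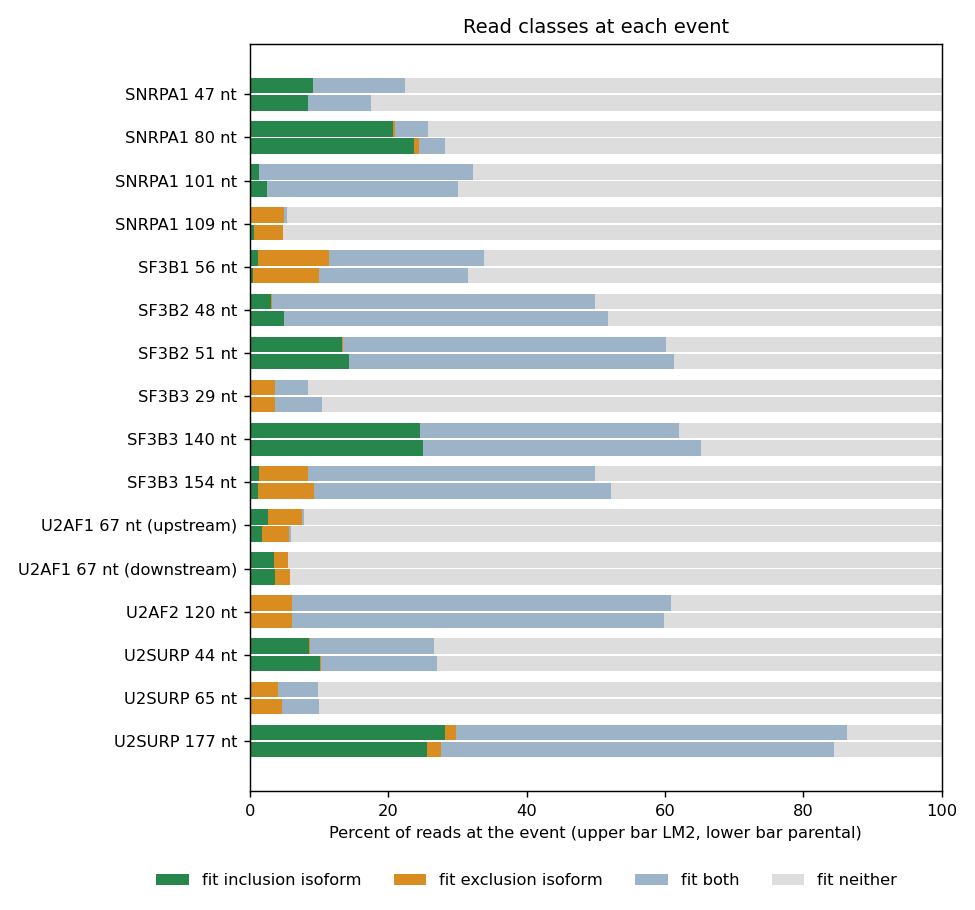
Share of reads (x axis, percent) in the 4 classes at each of the 16 events listed in both lines, with the upper bar for LM2 and the lower bar for parental cells. The bars of a pair are nearly alike, and the share that fits neither isoform runs from 13.8% to 94.7% in LM2 across events.

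How many reads bore on an exon differed far more between events than between lines. Reads that fit neither isoform took from 13.8% of the reads at the U2SURP 177-nt event to 94.7% at the SNRPA1 109-nt event in LM2, and from 15.6% to 95.2% in parental cells. The median over the 16 events was 70.5% in LM2 and 70.8% in parental cells. Within an event the lines differed by at most 4.9 percentage points. Both U2AF1 events were above 92% in each line. The median over all events of the files was 82.8% and 84.8%.

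Event reads also served as a rough measure of transcript level. For each gene the event with most event reads was used, scaled per 1000000 event reads of its library. SNRPA1 had 434 reads in LM2 and 412 in parental cells at the event of its 80-nt exon and a scaled ratio of 1.32 (exact conditional 95% interval 1.15 to 1.51). SF3B1 had 908 and 835 reads (ratio 1.36, 1.24 to 1.5), and SF3B3 had 2388 and 2199 (1.36, 1.28 to 1.44). U2AF1 had 185 and 163 (1.42, 1.14 to 1.76), with its reads listed at both copies. U2SURP had 3895 and 4006 (1.22, 1.16 to 1.27) and U2AF2 1653 and 1851 (1.12, 1.04 to 1.19). SF3B2 stood apart with 549 and 748 reads, a ratio of 0.918 (0.821 to 1.03). The intervals of 6 of the 7 genes lay above 1, and they cover counting error only, for 1 pooled library against another. By the ratio itself 6 of the 7 were above 1, against 3623 of all 8825 genes. The share of all genes with an interval above 1 is not given. With inclusion and exclusion reads alone 4 of the 7 intervals lay above 1, since those of U2AF2 (1.04, 0.836 to 1.28) and SNRPA1 (1.16, 0.998 to 1.35) then held 1. In bulk RNA, fewer expressing cells and less RNA per cell cannot be told apart.

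**Figure D3:**
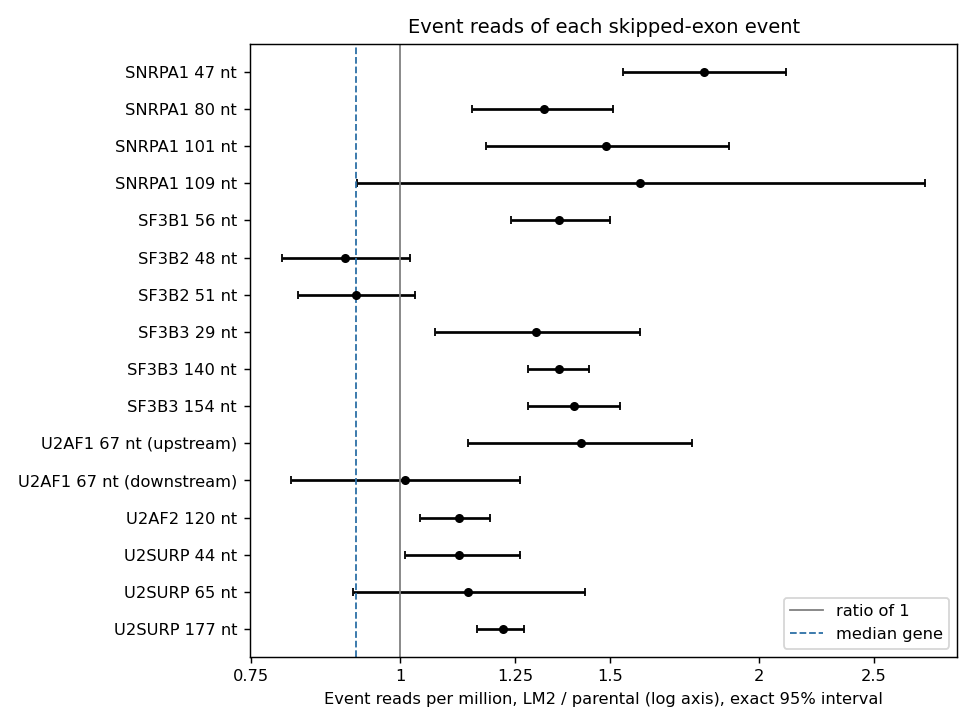
Ratio of scaled event reads, LM2 over parental (x axis, log scale), at each of the 16 events, with exact 95% intervals for counting error. The grey line is a ratio of 1 and the dashed line the median gene at 0.919; the 4 SNRPA1 events lie between 1.32 and 1.80 and both SF3B2 events below 1.

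None of the 7 measured genes was 2-fold apart, while of 8825 genes 3.35% were up 2-fold or more in LM2 and 8.92% were down as far, each with an interval that did not hold 1. In LM2, 4 of the 7 were at least 25% higher (SNRPA1, SF3B1, SF3B3 and U2AF1), against 16.1% of all genes, and 0 had a ratio of 0.8 or less, against 28.8%. Without U2AF1 the count was 3. The median log2 ratio was 0.40 over the 7 genes and -0.12 over all genes. Relative to that median gene the log2 ratios were 0.52 for SNRPA1, 0.57 for SF3B1, 0.56 for SF3B3, 0.63 for U2AF1, 0.40 for U2SURP and 0.28 for U2AF2. SF3B2 lay at the median gene.

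The ratio of a gene also depended on which of its events was read. All 4 SNRPA1 events were above 1, at 1.32 for the 80-nt exon, 1.49 (1.18 to 1.89) for the 101-nt exon, 1.59 (0.921 to 2.76) for the 109-nt exon and 1.80 (1.54 to 2.11) for the 47-nt exon. The events of SNRPA1 come from the same libraries and are not replicates. The SNRPA1 ratio of 1.16 from inclusion and exclusion reads rests on 353 and 357 reads at the 80-nt exon. The SF3B3 events gave 1.30 to 1.40 and those of U2SURP 1.12 to 1.22. The downstream exon of U2AF1 gave 1.01 (0.81 to 1.26), where the upstream exon gave 1.42. In all, 14 of the 16 events had a ratio above 1, and 11 had an interval above 1. These events come from only 7 genes, and no share over all events is given beside these counts.

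Reads that fit neither isoform, scaled to the library's total of such reads, were also higher in LM2 at most members. No median or share over all events is given for this ratio, so it does not set the members apart. The ratio was 1.57 (1.45 to 1.71) at the SNRPA1 80-nt event and 1.40 to 1.57 over all 4 events of SNRPA1. At the 3 SF3B3 events it was 1.62 to 1.73, above the 1.30 to 1.40 of their event reads. At the SF3B1 event it was 1.29 (1.21 to 1.38), at the downstream U2AF1 exon 1.13 (1.07 to 1.19), at the U2AF2 event 1.13 (1.04 to 1.23) and at the U2SURP 44-nt event 1.21 (1.13 to 1.29). The intervals of both SF3B2 events, 0.881 to 1.16 for the 51-nt form and 0.904 to 1.16 for the 48-nt form, and of the U2SURP 177-nt event, with 1.11 (0.993 to 1.23), held 1.

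**Figure D4:**
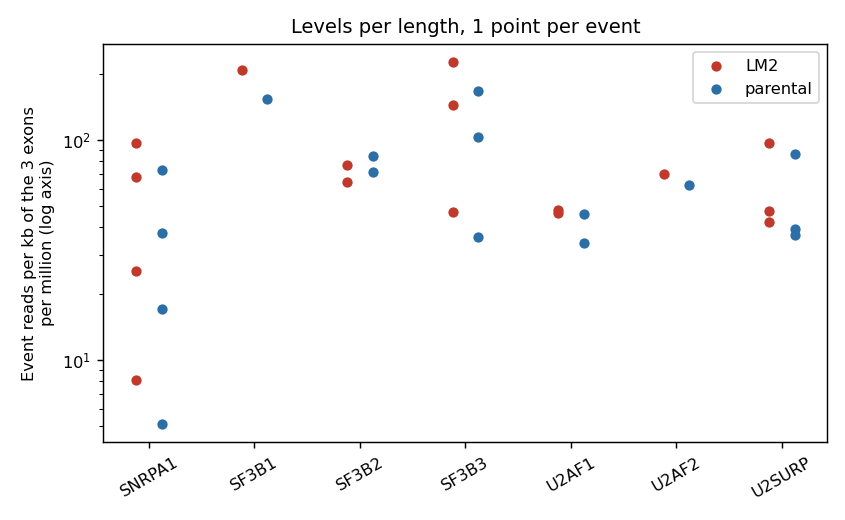
Event reads per kilobase of the 3 exons of an event per 1000000 event reads (y axis, log scale), with 1 point per event and line, by gene. SF3B3 and SF3B1 have the highest points, and the points of SNRPA1 spread from 8.09 to 96.5 in LM2.

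Per length, SF3B3 and SF3B1 had the highest levels of the set. At the best covered event, event reads per kilobase of its 3 exons, per 1000000 event reads of the library, were 226 in LM2 and 167 in parental cells for SF3B3, and 208 and 153 for SF3B1. SNRPA1 ranked 3 of 7 in LM2 at 96.5 and 4 of 7 in parental cells at 73.2, beside SF3B2 at 77.3 and 84.2. U2AF2 followed at 70 and 62.7, then U2AF1 at 48 and 33.8 and U2SURP at 47.6 and 39.2. This order is loose. By the median over its events SF3B3 was at 144 in LM2 and 103 in parental cells, below SF3B1. The events of SNRPA1 alone ranged from 8.09 to 96.5 in LM2 and 5.09 to 73.2 in the parental line. The U2SURP event used for the order includes a downstream exon of 4414 nt, while the U2SURP 44-nt event was at 97.3 in LM2.

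A list of 63 other spliceosome genes put these values in context. Of the 85 tested exons in 32 of these genes, 0 were called at a difference of 0.2. At 0.1, 2 of the 85 were called, near the background of 2.07% of all exons. They were an SF1 exon of 76 nt and an RBM39 exon of 90 nt. The exon of SF1, the branch point binding protein that precedes U2, was at 0.73 in LM2 against 0.59. That of RBM39, a U2AF-like protein, was at 0.52 against 0.41. Their exclusion reads were few, 16 and 18 for SF1 and 5 and 3 for RBM39. Inclusion reads were 529 in LM2 and 723 in parental cells for SF1, and 561 and 624 for RBM39. Inclusion reads per exclusion read were thus not higher in LM2 at either exon. The higher inclusion in LM2 rests on the deposited levels alone. In event reads 41 of the 63 genes were measured, with 8 at least 25% higher in LM2, 6 at a ratio of 0.8 or less and a median log2 ratio of 0.06. Among the highest ratios were those of SNRPE (1.55), DHX38 (1.48) and SNRPD2 (1.44). The lowest were those of ZCRB1 (0.532), RBM17 (0.588), GPATCH8 (0.601) and LUC7L3 (0.675). Over all genes 16.1% were at least 25% higher and 28.8% at a ratio of 0.8 or less, with a median log2 ratio of -0.12. Among 9 measured U2 partners 0 were higher by that measure and 3 lower, with a median log2 ratio of -0.09. These few genes are therefore not set apart from all genes. Among 6 Sm proteins, the ring shared by the spliceosomal snRNPs, 3 were higher and 0 lower, with a median of 0.25.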

How the data were processed

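Total RNA of 2 samples of each line was sequenced with ScriptSeq v2. STAR 2.7 and hg38 are named in the submitters' processing notes, and MISO per the file headers. The sources used here do not give its settings or how the samples of a line were joined. The authors' deposited inclusion level is a fraction with interval bounds, the difference a score (LM2 minus parental) and the Bayes factor a ratio. Reads per event are deposited as raw counts in 4 classes.

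Computed here with Python 3.11.15 and scipy 1.17.1 were exact Clopper-Pearson shares, conditional odds ratios, ratios of event reads scaled to their library total, and a read-based level (inclusion reads divided by 2, over that plus exclusion reads). Genes needed 20 event reads over both libraries. Computed intervals are 95%, cover counting error only and were tested on simulated counts. The pooled files allow no p-value between lines. Where an exon had several events, the one with most informative reads stood for it.

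The members, lists, tests and thresholds were chosen with earlier results of these data known. The text names all 10 members, their best covered exons, exons with a difference of at least 0.1 or a Bayes factor of at least 1, and the 4 highest and 4 lowest ratios of the pathway list with at least 50 reads in each library. Other exons were named after their values were seen, and 1 of the genes this rule names is not reported here. The gene list of other spliceosome genes holds U2 partners, Sm, U1, tri-snRNP and U12-type proteins.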

Additional observations from a re-analysis of the deposited data

How the results depend on the processing

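No paired analysis was possible because the deposited files hold 1 pooled set of values per line and none per replicate, and for the same reason no replicate could be left out. The count of called member exons stayed at 0 with a difference of 0.1, with no read minimum, with 20 informative reads and with every event counted, and was 1, the 48-nt form of SF3B2, with a Bayes factor of at least 1. No member exon had a second event, so that alternative gave no value. The SNRPA1 ratio of 1.32 was 1.54 as the median over its events, 1.43 relative to the median gene and 1.16 from inclusion and exclusion reads. No gene was 2-fold apart with or without scaling to the median gene, and without that scaling 4 were apart by 25% or more. The count of 4 genes at least 25% higher was 5 relative to the median gene (22.5% of all genes) and 3 without U2AF1, both added after the data were seen. By the median over events SNRPA1 ranked 7 of 7 in level in each line in place of 3 in LM2 and 4 in parental cells. The median share of reads that fit neither isoform rose from 40.1% to 68.4% in parental cells and from 39.9% to 66.2% in LM2 when taken over all events of a gene. The cause was not tested. Of 36 other values for single exons and genes, 6 moved beyond their interval and none reversed. Those 6 were all event read ratios of genes. Exon differences carry no interval, and none was counted as moved. The difference of the SF3B2 48-nt form still shrank from -0.24 to -0.067 by reads. Its level went from 0.39 to 0.933 in LM2 and from 0.63 to 1 in parental cells. Depth limits the SNRPA1 109-nt, SF3B3 29-nt, U2AF2 and U2SURP 65-nt exons, whose levels rest on 0 to 4 inclusion reads in each line.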
